A study of Mus musculus with 16 samples.

Results

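Foxp3 and Ccdc22 are a pair of adjacent genes on the mouse X chromosome, and their expression was followed through all 8 groups of a microarray study of CD4+ T cells. Both genes were chosen by their levels on these same arrays, so their values and differences are given as a description with no test. The platform annotation gave exactly 1 probe set for each, 10598292 for Foxp3 and 10603328 for Ccdc22. They are 2 of 19531 genes with a symbol of their own and 2 of the 12798 genes that passed the filter on low values.

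Splenic T cells of male mice aged 6 weeks were purified by repeated flow sorting. Regulatory T cells (Treg) were taken as CD3+, CD4+, GFP+ cells and conventional T cells (Tconv) as CD3+, CD4+, GFP- cells. The mice carried either Foxp3-GFP, a chimeric allele that joins GFP to the Foxp3 protein (called fusion here), or Foxp3-IRES-GFP, which adds a separately translated GFP and leaves the Foxp3 protein as it is (called ires here). Each allele was present on the NOD background, a strain prone to autoimmune diabetes, and on the B6 background. The 8 groups were NOD fusion Treg, NOD ires Treg, NOD fusion Tconv, NOD ires Tconv, B6 fusion Treg, B6 ires Treg, B6 fusion Tconv and B6 ires Tconv, with 2 arrays each. All 4 lines carried a GFP reporter in Foxp3, so no group had an unmodified locus, and the reporter cassette and any linked DNA that came with it cannot be told apart. Nothing in the labels says whether the 2 arrays of a group came from separate mice, so SEs and p-values describe array-to-array spread that could be technical.

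Foxp3 is a forkhead transcription factor that defines the Treg lineage: it activates genes such as Il2ra and Ctla4, represses genes such as Pde3b, and its loss in mice causes fatal autoimmunity. Its own transcription depends on interleukin-2 signalling through STAT5 and on T cell receptor signals acting through several enhancers in the gene. Ccdc22 encodes a coiled-coil protein present in most tissues. In human cells it is known as a core subunit of the CCC complex, which joins Ccdc93 and the COMMD proteins, works with the retriever and WASH complexes to return membrane proteins from endosomes to the cell surface, and takes part in the control of NF-kB signalling.

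In the reference annotation the 2 genes lie tail to tail on opposite strands and their annotated spans overlap, while Flicr, a long non-coding RNA known in mice to restrain Foxp3, lies on the other side of Foxp3. The starts of the 2 genes therefore lie at the outer ends of the pair, and both are shown because Foxp3 was high in Treg alone while Ccdc22 was present in both cell types. The sequences are from RefSeq on build GRCm38.p6, cover 250 bases before to 50 bases after the start, and read along each gene's own strand, chrX:7579426-7579725 on the plus strand for the first of 2 listed Foxp3 starts and chrX:7605371-7605670 on the minus strand for Ccdc22. Capitals mark TATAAA or its reverse complement TTTATA.

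Foxp3: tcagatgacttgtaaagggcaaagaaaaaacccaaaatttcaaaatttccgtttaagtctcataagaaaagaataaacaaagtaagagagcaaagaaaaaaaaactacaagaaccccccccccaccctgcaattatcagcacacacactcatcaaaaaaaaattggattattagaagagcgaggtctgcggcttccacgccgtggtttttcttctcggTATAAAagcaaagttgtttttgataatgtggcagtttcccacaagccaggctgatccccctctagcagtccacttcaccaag
Ccdc22: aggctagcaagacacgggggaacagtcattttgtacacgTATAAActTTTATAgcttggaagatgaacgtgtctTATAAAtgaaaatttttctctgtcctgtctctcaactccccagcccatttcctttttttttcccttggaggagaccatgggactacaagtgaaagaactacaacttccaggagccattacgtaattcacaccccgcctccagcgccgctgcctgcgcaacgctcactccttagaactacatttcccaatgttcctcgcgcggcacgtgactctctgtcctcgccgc

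The Foxp3 window held TATAAA once, 32 bases before the start, a position from 26 to 36 bases before the start that holds this motif in 1.7% of the 32851 RefSeq promoters. The Ccdc22 window held TATAAA in 2 places and TTTATA once, the first of them 211 bases before the start. Of all promoters, 13.6% held TATAAA on either strand. The Ccdc22 window had 15 CG dinucleotides and 48.7% G and C, against 6 and 40.7% in the Foxp3 window and a median of 7 CG over all promoters. The window at the second listed Foxp3 start, not shown, had 8 CG, 47.7% G and C, and TATAAA on neither strand, so these features depend on which start is taken. None of the 3 windows held the forkhead core TGTTTAC on either strand, which occurred in 3.6% of promoters.

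Array medians lay between 86.7 and 99.0 intensity units. T cell markers averaged between log2 11.28 and 11.57 on every array. Of markers of other cells, 2 of 7 measured B and plasma cell genes passed the filter (array means 5.26 to 5.58 in Treg and 5.16 to 6.12 in Tconv). So did 4 of 9 myeloid and dendritic genes (5.90 to 6.24 and 6.00 to 6.27) and 4 of 7 CD8 T and NK genes (5.53 to 5.78 and 5.90 to 6.36). Single genes stood above these means. Cd79b was at 7.42 in Treg and 6.73 in Tconv, Cst3 at 10.38 and 9.95, and Cd8b1 at 8.21 and 8.63. Treg minus Tconv was 0.69 for Cd79b, 0.44 for Cst3, 0.23 for Cd8a and -0.42 for Cd8b1. These had a limma adjusted p under 0.05, as 28.6% of all genes did. Klrd1 differed by -2.35, given with no call because its Treg mean of 4.23 was under the filter threshold of 6.06. Its place among the tested genes owed most to Tconv. The other markers of other cells above the filter were not called. Of the T cell markers, Cd4 (-0.36), Cd3d (-0.21) and Cd28 (-0.18) were lower in Treg and Cd5 (0.43) was higher, each with a limma adjusted p under 0.05. Between the strains some markers of other cells were called too. NOD minus B6 in Treg was 0.58 for Cst3, 0.63 for Eomes, -0.50 for Cd8a, -0.57 for Cd8b1, -0.60 for Lyz2 and -0.45 for Itgam, where 21% of all genes were called. In Tconv it was 0.93 for Cst3 and -0.66 for Klrd1, where 15.9% were called. The part of all these markers in the results was not tested. The 4 Treg markers Il2ra, Ctla4, Ikzf2 and Tnfrsf18 averaged 10.86 to 11.48 in Treg and 6.87 to 8.0 in Tconv, so markers other than Foxp3 matched the labels.

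Foxp3 differed widely between the sorted populations. Because Treg and Tconv were gated on a GFP reporter in Foxp3 itself, the sort set the direction of this difference in advance. Its log2 values were 11.47 and 11.52 in NOD fusion Treg, 11.94 and 12.16 in NOD ires Treg, 11.37 and 11.59 in B6 fusion Treg, and 11.79 and 11.77 in B6 ires Treg. In Tconv they were 7.12 and 8.18 in NOD fusion, 7.57 and 7.68 in NOD ires, 7.09 and 7.06 in B6 fusion, and 7.40 and 7.01 in B6 ires cells. Every Treg array lay above every Tconv array, and the lowest Treg array stood more than 3 log2 units above the highest Tconv array. Treg exceeded Tconv by 4.31 ± 0.11 (SE) over the 4 lines, 19.8-fold, the third largest positive difference among 12798 genes. By line the difference was 3.84 in NOD fusion, 4.42 in NOD ires, 4.4 in B6 fusion and 4.57 in B6 ires mice, each ± 0.22. In bulk RNA fewer cells with a transcript and less transcript per cell cannot be told apart.

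Ordered by group mean, Foxp3 was highest in NOD ires Treg (12.05 ± 0.16, SD, n = 2), followed by B6 ires Treg (11.78 ± 0.02), NOD fusion Treg (11.49 ± 0.04) and B6 fusion Treg (11.48 ± 0.16). The arrays of the last pair overlapped, and those of the other neighbouring Treg groups did not. Among Tconv groups NOD fusion (7.65 ± 0.75) and NOD ires (7.63 ± 0.08) came before B6 ires (7.21 ± 0.27) and B6 fusion (7.08 ± 0.02). Arrays overlapped within each background but not between NOD ires and B6 ires Tconv.

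**Figure D1:**
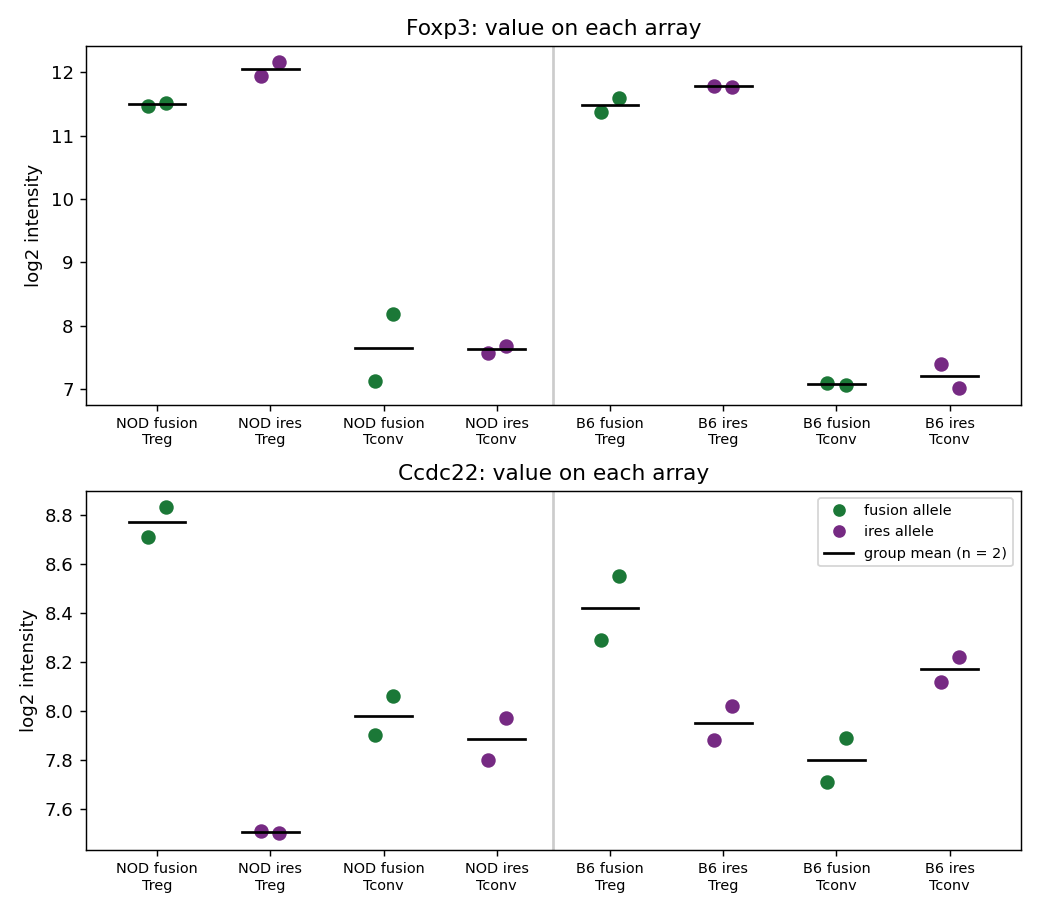
Log2 intensity of Foxp3 (top) and Ccdc22 (bottom) on each of the 16 arrays, by group, with NOD groups on the left and B6 groups on the right; points are arrays, bars are means of 2. Foxp3 lies between 11.37 and 12.16 in Treg and between 7.01 and 8.18 in Tconv, whereas Ccdc22 is highest in fusion Treg and lowest in NOD ires Treg.

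Ccdc22 had a much narrower range and a different order. Its log2 values were 8.71 and 8.83 in NOD fusion Treg, 7.51 and 7.50 in NOD ires Treg, 8.29 and 8.55 in B6 fusion Treg, and 7.88 and 8.02 in B6 ires Treg. In Tconv they were 7.90 and 8.06 in NOD fusion, 7.80 and 7.97 in NOD ires, 7.71 and 7.89 in B6 fusion, and 8.12 and 8.22 in B6 ires cells. The 4 fusion Treg arrays were the highest of all 16, and the 2 NOD ires Treg arrays were the lowest. By mean the order was NOD fusion Treg (8.77 ± 0.09), B6 fusion Treg (8.42 ± 0.18), B6 ires Tconv (8.17 ± 0.07), NOD fusion Tconv (7.98 ± 0.11), B6 ires Treg (7.95 ± 0.10), NOD ires Tconv (7.88 ± 0.12), B6 fusion Tconv (7.80 ± 0.13) and NOD ires Treg (7.51 ± 0.01, SD, n = 2 each). From NOD fusion Tconv to B6 fusion Tconv each group overlapped the next, and the groups above and below that run did not overlap their neighbours.

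Whether Ccdc22 was higher or lower in Treg depended on which reporter the mice carried. Treg minus Tconv was 0.79 in NOD fusion and 0.62 in B6 fusion mice, but -0.38 in NOD ires and -0.22 in B6 ires mice, each ± 0.13. In all 4 lines the 2 Treg arrays did not overlap the 2 Tconv arrays, on the upper side with fusion and on the lower side with ires. Pooled over the lines these differences partly cancelled to 0.20 ± 0.06.

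Within Treg the 2 reporter alleles went with opposite orders of the neighbouring genes. For Foxp3 all 4 fusion Treg arrays lay below all 4 ires Treg arrays, by -0.43 ± 0.16 over both backgrounds (1.35-fold), -0.56 ± 0.22 in NOD and -0.30 ± 0.22 in B6. Each SE used a spread shared by all 8 groups. The SD of Foxp3 was widest in NOD fusion Tconv (0.75) and was 0.02 to 0.16 in the Treg groups. For Ccdc22 all 4 fusion Treg arrays lay above all 4 ires Treg arrays, by 0.87 ± 0.09 (1.83-fold), 1.26 ± 0.13 in NOD (2.4-fold) and 0.47 ± 0.13 in B6 (1.39-fold). Among the 12798 genes Ccdc22 held place 16 from the top of this difference over both backgrounds, place 5 in NOD and place 191 in B6. Foxp3 held place 37 from the bottom over both backgrounds, place 28 in NOD and place 481 in B6. The fusion protein and the cells' Foxp3 activity were not measured here, and where the probes of the 2 probe sets lie relative to the reporter cassettes or to the overlap of the genes was not tested.

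In Tconv the same alleles gave a different picture. Foxp3 differed between fusion and ires Tconv by -0.05 ± 0.16 over both backgrounds, less than its SE. Ccdc22 was lower in B6 fusion than in B6 ires Tconv by -0.37 ± 0.13, with no overlap, and differed by 0.09 ± 0.13 between NOD fusion and NOD ires Tconv, where arrays overlapped. The allele difference in Ccdc22 was larger in Treg than in Tconv by 1.01 ± 0.13 over both backgrounds, 1.17 ± 0.18 in NOD and 0.85 ± 0.18 in B6. For Foxp3 the corresponding value was -0.38 ± 0.22.

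The strain difference in Ccdc22 had opposite signs under the 2 alleles. NOD minus B6 in Treg was 0.35 ± 0.13 for fusion and -0.44 ± 0.13 for ires, and in Tconv 0.18 ± 0.13 for fusion and -0.29 ± 0.13 for ires. Averaged over the alleles it came to -0.04 ± 0.09 in Treg and -0.05 ± 0.09 in Tconv. Foxp3 in Treg differed between NOD and B6 by 0.14 ± 0.16.

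In Tconv, where Foxp3 was near the low end of its range, NOD exceeded B6 by 0.50 ± 0.16. The value rested partly on NOD fusion Tconv array 2, at 8.18, 1.05 above its partner. Without that array the difference was 0.23, and without its partner 0.76. The Treg markers on that array were 6.82 for Il2ra, 8.17 for Ikzf2, 7.71 for Ctla4 and 9.29 for Tnfrsf18, against 5.91, 7.66, 7.37 and 9.20 on its partner. All 4 were higher on the array with more Foxp3, Tnfrsf18 by the least. The B cell marker Cd79b also lay 0.8 apart on these 2 arrays. Over the NOD and B6 Tconv arrays Il2ra was higher in NOD by 0.85 ± 0.21, given with no p because it was near the floor. Its B6 Tconv means were 5.42 (fusion) and 5.59 (ires), under the filter threshold of 6.06. Its NOD Tconv arrays lay 0.92 (fusion) and 1.21 (ires) apart, while Foxp3 lay 0.11 apart on the NOD ires Tconv arrays. Ikzf2 was higher in NOD by 0.61 ± 0.13 (limma adjusted p = 0.00405) and Tnfrsf18 by 0.73 ± 0.08 (adjusted p = 1.03e-05). Ctla4 differed by -0.20 ± 0.17 (adjusted p = 0.393). The share of GFP- cells with Foxp3 transcript was not measured, and the part of these markers in the Foxp3 value was not tested.

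**Figure D2:**
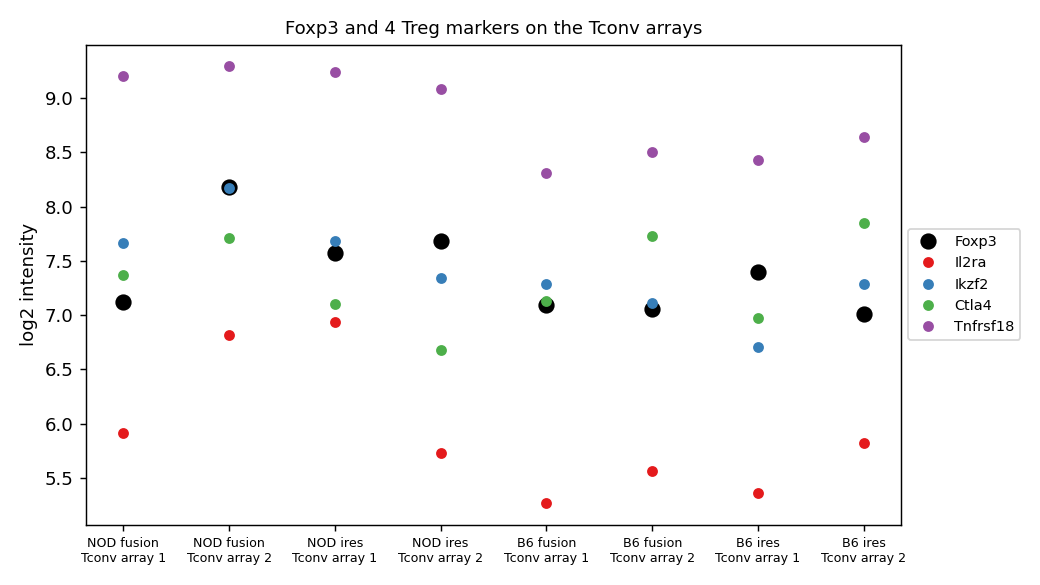
Log2 intensity of Foxp3 (large black points) and 4 Treg markers on the 8 Tconv arrays, NOD arrays on the left and B6 arrays on the right. Foxp3 reaches 8.18 on NOD fusion Tconv array 2 and lies between 7.01 and 7.68 on the other 7 arrays.

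The genes around the pair were examined next, to see whether they shared its patterns. Up to 20 measured genes on each side were taken by their order in the reference annotation, 37 in all, of which 25 passed the filter and were tested. Between Treg and Tconv 11 rose and 1 fell, so 12 of 25 changed where 28.6% of all genes did, and their median was 0.09 against -0.01 over all genes. The 11 include Flicr, which passed the filter through its Treg arrays alone. Genes were called at a Benjamini-Hochberg adjusted p under 0.05 in the limma fit.

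Flicr, next to Foxp3, had log2 values of 7.34 and 7.62 in NOD fusion Treg, 7.22 and 8.54 in NOD ires Treg, 7.18 and 7.59 in B6 fusion Treg, and 8.11 and 8.30 in B6 ires Treg. Its 8 Tconv arrays lay between 4.94 and 5.64, all under the filter threshold of 6.06, so it entered the test through its Treg values alone. It was higher in Treg by 2.59 ± 0.14, given with no p because it had to differ to enter the test. Between fusion and ires Treg it differed by -0.61 ± 0.20 (adjusted p = 0.305), and the NOD groups overlapped while the B6 groups did not. Where the probes of Flicr lie relative to Foxp3 was not tested.

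Further out, Plp2, an integral membrane protein of the endoplasmic reticulum, rose in Treg by 1.04 ± 0.07 (adjusted p = 9.77e-10). Its 3 probe sets gave 0.97 to 1.04. Syp, the synaptic vesicle protein synaptophysin, rose by 0.66 ± 0.08 (adjusted p = 1.2e-06), Hdac6, a cytoplasmic deacetylase, by 0.47 ± 0.06 (adjusted p = 1.72e-06), and Ppp1r3f, a regulatory subunit of protein phosphatase 1, by 0.43 ± 0.07 (adjusted p = 4.11e-05). The transcription factor Tfe3 rose by 0.42, and 2010204K13Rik, Praf2, the chloride transporter Clcn5, the mitochondrial import protein Timm17b and the deubiquitinase Usp27x rose by 0.22 to 0.25. Group means of 2010204K13Rik (5.81 to 6.28) and Usp27x (5.93 to 6.64) lay around the filter threshold of 6.06, so these rises were near the floor. Pim2, a survival kinase, fell by 0.82 on the log2 scale (± 0.07, adjusted p = 1.33e-08). Among the nearest genes without a call, Gm14379 differed by -0.02, Prickle3 by 0.05 and Magix by -0.04, and Cacna1f, the gene next to Ccdc22, lay between 5.20 and 5.82 on all arrays and was not tested.

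**Figure D3:**
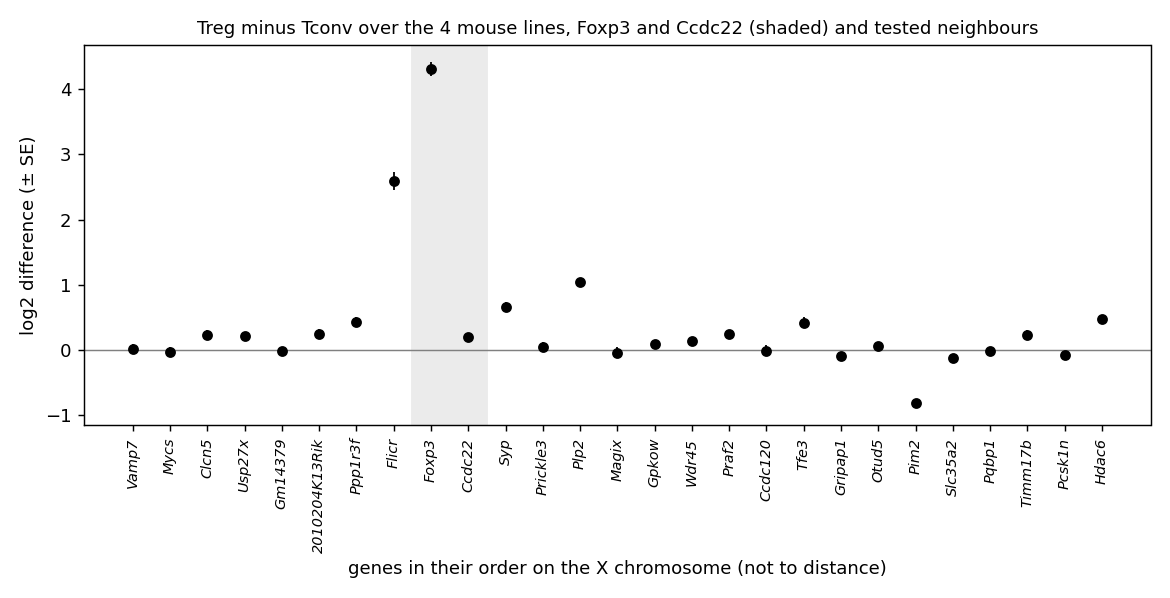
Treg minus Tconv (log2 ± SE, 4 lines pooled) for Foxp3 and Ccdc22 (shaded) and the 25 tested genes around them, in chromosome order and not to distance. Foxp3 at 4.31 and Flicr at 2.59 stand highest, Plp2 follows at 1.04, and Pim2 is lowest at -0.82.

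Between the alleles few of the surrounding genes were called. In Treg over both backgrounds 1 of 25 was called, where 0.609% of all genes were, and their median was -0.03. The median over all genes lay within 0.01 of 0 in each comparison of fusion with ires. The gene called was Syp, lower in fusion by -0.48 ± 0.11 (adjusted p = 0.0498). Its values were 7.03 and 6.93 in NOD fusion Treg, 7.02 and 7.44 in NOD ires Treg, 6.91 and 6.65 in B6 fusion Treg, and 7.57 and 7.38 in B6 ires Treg. The NOD groups overlapped and the B6 groups did not. The call was lost in 5 of the 10 alternative analyses (adjusted p up to 0.0847) and on leaving out any of 11 of the 16 arrays (adjusted p up to 0.24). Plp2 differed by -0.32 ± 0.10 (adjusted p = 0.252), and of the other nearest genes Usp27x by -0.16, Prickle3 by -0.17, 2010204K13Rik by -0.07, Gm14379 by -0.04, Ppp1r3f by -0.02 and Magix by 0.11, none of them called.

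None of the 25 was called in NOD Treg alone, where 0.102% of all genes were called and 1 neighbour had an unadjusted limma p under 0.05, nor in B6 Treg alone, where 0.344% were called and 6 had. In Tconv none was called over both backgrounds (0.0234% of all genes called, 1 neighbour with an unadjusted p under 0.05), in NOD (0.0469%, 0) or in B6 (0.0313%, 1). The neighbours' values between NOD fusion and NOD ires Treg ran from -0.40 for Flicr to 0.20 for Slc35a2, beside 1.26 for Ccdc22. In B6 Treg they ran from -0.82 for Flicr to 0.37 for Vamp7, beside 0.47 for Ccdc22. Whether the allele difference itself varied was tested too. None of the neighbours was called between NOD and B6 in Treg (0.0391% of all genes called, 4 neighbours with an unadjusted p under 0.05). None was called between NOD and B6 in Tconv (0.0391%, 0) or between Treg and Tconv (0.0469%, 3). The share of all genes with an unadjusted p under 0.05 is not given here. Counts at that threshold, here and for the gene lists below, therefore have no background beside them.

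**Figure D4:**
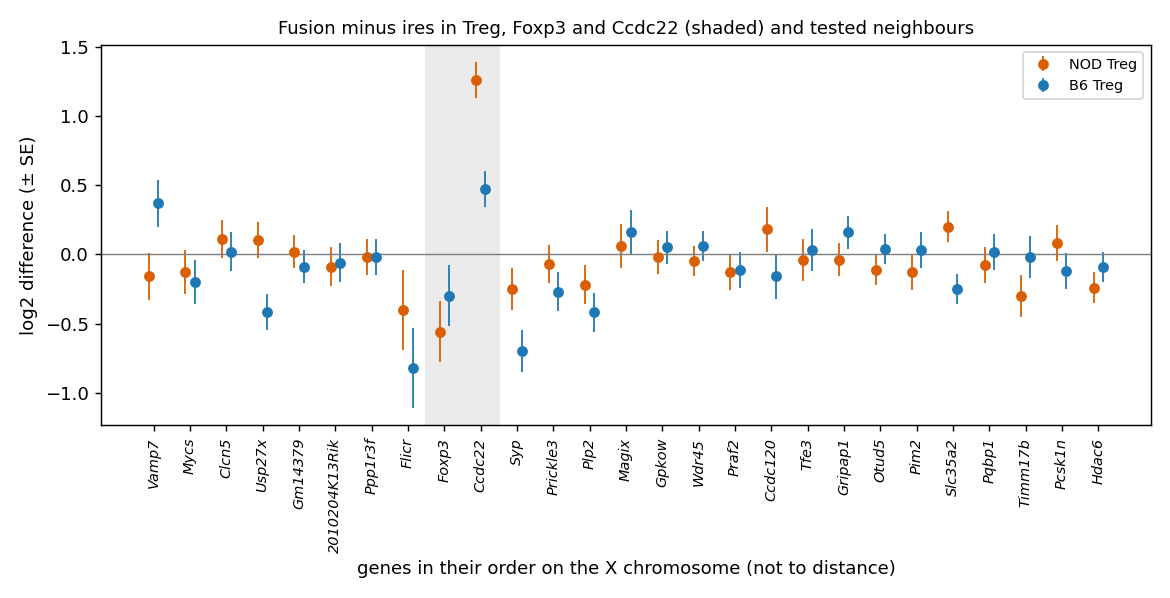
Fusion minus ires in Treg (log2 ± SE) for Foxp3 and Ccdc22 (shaded) and the 25 tested genes around them, in chromosome order and not to distance, with NOD Treg in orange and B6 Treg in blue. Ccdc22 stands at 1.26 in NOD and 0.47 in B6, Foxp3 at -0.56 and -0.30, and Flicr at -0.40 and -0.82.

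Between the strains 1 of 25 neighbours was called in Treg, where 21% of all genes were, and 3 in Tconv, where 15.9% were. Plp2 was lower in NOD than in B6 Treg by -0.31 ± 0.10 (adjusted p = 0.035) and higher in NOD than in B6 Tconv by 0.34 ± 0.10 (adjusted p = 0.0278). The Treg call was lost in 2 of 10 alternative analyses (adjusted p up to 0.12) and on leaving out any of 6 of the 16 arrays (adjusted p up to 0.155). The Tconv call was lost for 5 of the arrays (adjusted p up to 0.139) and, of the 3 Plp2 probe sets, in 10603346 (adjusted p = 0.0527). In Tconv Ppp1r3f was also higher in NOD by 0.32 ± 0.09 (adjusted p = 0.0298), and Ccdc120 was lower by -0.41 ± 0.11 (adjusted p = 0.0229).

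The known partners of Ccdc22 were then set beside its allele difference. None of the 15 tested CCC, COMMD and retriever genes was called between fusion and ires Treg, where 0.609% of all genes were, so a count of 0 is near the background, and none had an unadjusted limma p under 0.05 in both backgrounds together or in either one. Their differences ran from -0.20 for Vps26c to 0.14 for Commd2 in NOD Treg and from -0.17 for Commd2 to 0.12 for Commd6 in B6 Treg, beside 1.26 and 0.47 for Ccdc22. None of the 5 WASH genes was called either, against the same 0.609%, with 1 at an unadjusted limma p under 0.05 over both backgrounds, and they ran from -0.16 to 0.08 in NOD Treg and from -0.25 to 0.12 in B6 Treg, Washc3 and Washc4 at the ends in both.

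**Figure D5:**
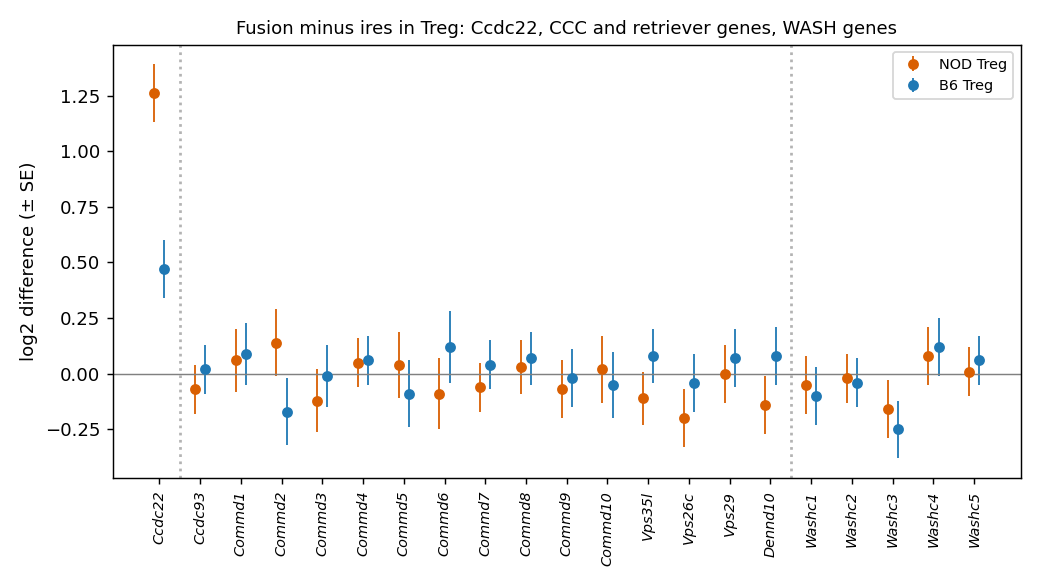
Fusion minus ires in Treg (log2 ± SE) for Ccdc22 on the left, 15 CCC, COMMD and retriever genes in the middle and 5 WASH genes on the right, with NOD Treg in orange and B6 Treg in blue. Ccdc22 stands at 1.26 in NOD and 0.47 in B6, and the CCC, COMMD and retriever genes lie between -0.20 and 0.14.

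Between Treg and Tconv, 2 CCC, COMMD and retriever genes rose and 1 fell (median 0.02, against -0.01 over all genes), 20% of the 15 where 28.6% of all genes were called. Commd8 fell by 0.77 on the log2 scale (± 0.06, adjusted p = 5.12e-09), Commd4 rose by 0.23 ± 0.06 (adjusted p = 0.00388), and Vps35l, a retriever subunit, rose by 0.18 ± 0.06 (adjusted p = 0.0264). Of the WASH genes, Washc4 (-0.60 ± 0.07, adjusted p = 9.95e-07) and Washc3 (-0.37 ± 0.07, adjusted p = 0.000242) fell and Washc5 rose (0.18 ± 0.06, adjusted p = 0.0189). Between NOD and B6 Treg 3 of the 15 and 1 of the 5 WASH genes were called, 20% of each, beside 21% of all genes. In NOD against B6 Treg, Dennd10 was higher by 0.53 ± 0.09 (adjusted p = 0.00043), Washc2 by 0.44 ± 0.08 (adjusted p = 0.000514), Commd7 was lower by -0.64 ± 0.08 (adjusted p = 2.34e-05) and Commd3 by -0.42 ± 0.10 (adjusted p = 0.00489). In Tconv Commd7 (-0.50 ± 0.08, adjusted p = 0.00047), Dennd10 (0.65 ± 0.09, adjusted p = 8.43e-05) and Washc2 (0.39 ± 0.08, adjusted p = 0.00241) were called in the same direction, and Commd3 was not called (-0.22 ± 0.10, adjusted p = 0.115). Whether sequence differences between NOD and B6 lie under these probes was not tested.

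Of 17 tested NF-kB feedback and target genes, a pathway that CCC proteins take part in controlling in human cells, 15 rose in Treg and none fell (median 0.68, against -0.01 over all genes), where 28.6% of all genes were called in either direction. Bcl2l1, an anti-apoptotic gene, rose by 1.04 ± 0.06 (adjusted p = 7.96e-11), the adhesion molecule Icam1 by 0.90 ± 0.06 and Nfkb2 by 0.86 ± 0.06. Between fusion and ires Treg none of the 17 was called, beside 0.609% of all genes, with 4 at an unadjusted p under 0.05 and a median of 0.10.

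Of Foxp3's family, Foxp4 rose in Treg by 0.45 ± 0.06 (adjusted p = 1.78e-05) and Foxp1, which is needed for T cell quiescence, was lower in Treg by -0.35 ± 0.06 (adjusted p = 0.000116). Foxp2 lay between 5.40 and 5.85 on all arrays, under the filter. Between fusion and ires Treg Foxp4 differed by -0.19 ± 0.09 (adjusted p = 0.643) and Foxp1 by -0.10 ± 0.08 (adjusted p = 0.936). Both were higher in NOD than in B6 Treg, Foxp1 by 0.30 ± 0.08 (adjusted p = 0.016) and Foxp4 by 0.35 ± 0.09 (adjusted p = 0.00985).

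Genes acting upstream and downstream of Foxp3 are given against a background of 28.6% of all genes called between Treg and Tconv and 0.609% called between fusion and ires Treg, so a count of 0 between the alleles says nothing particular about a list of this size. Of 27 tested regulators of its transcription 14 rose in Treg and 2 fell (median 0.18), with the interleukin-2 receptor chains Il2ra (5.29 ± 0.15) and Il2rb (2.85 ± 0.10) and the T cell receptor-induced Nr4a1 (1.24 ± 0.08) at the top, and the chromatin organiser Satb1 (-0.94 ± 0.07) at the bottom. None of the 27 was called between fusion and ires Treg, where 2 had an unadjusted limma p under 0.05 and the median was -0.02. Among 21 protein partners of Foxp3, 10 rose in Treg and 3 fell (median 0.08). The Ikaros family factors Ikzf2 (3.74 ± 0.09), Ikzf4 (1.72 ± 0.09) and Ikzf3 (1.17 ± 0.06) and Irf4 (1.75 ± 0.09) rose most. The 3 that fell were Lef1 (-1.03 ± 0.07), Ikzf1 of the same Ikaros family (-0.75 ± 0.06) and Usp7 (-0.20 ± 0.07). Again none of the 21 was called between the alleles in Treg, where 5 had an unadjusted p under 0.05.

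Genes downstream of Foxp3 included the 4 Treg markers above. As before, 28.6% of all genes were called between Treg and Tconv and 0.609% between fusion and ires Treg. The activated and repressed gene lists were chosen with earlier results of these data known, so their directions in Treg are only a description. All 13 tested genes listed as activated rose in Treg against Tconv (median 2.89), with Il2ra, Lrrc32 (4.4 ± 0.08), Ctla4 (4.27 ± 0.12) and Ikzf2 highest. Il2ra lay under the filter threshold on 6 of the 8 Tconv arrays, so its place among the tested genes owed most to Treg. None of them was called between fusion and ires Treg, where 3 had an unadjusted limma p under 0.05 and the median was 0.07. Of 7 genes listed as repressed, 5 fell in Treg (median of the 7, -0.94), with Pde3b (-4.62 ± 0.08), Dapl1 (-3.67 ± 0.08) and Igfbp4 (-3.00 ± 0.09) lowest. Id3 rose by 0.59 ± 0.07, against the direction of its list. Between fusion and ires Treg 2 of the 7 were called in opposite directions. Il7r, the interleukin-7 receptor, differed by 0.44 ± 0.09 (adjusted p = 0.0416), with fusion the higher. Id3, an inhibitor of E proteins, differed by -0.45 ± 0.10 (adjusted p = 0.0445), with fusion the lower. The Il7r call was lost in 3 of 10 alternative analyses and on leaving out any of 7 of the 16 arrays (adjusted p up to 0.214), the Id3 call in 4 and 9 (adjusted p up to 0.224). In B6 Treg alone Id3 was lower in fusion by -0.76 ± 0.14 (adjusted p = 0.0188), and it was the only one of the 7 called there. In NOD Treg Id3 averaged 7.94 with fusion, its arrays 0.41 apart, and 8.08 with ires, so the pooled difference came mostly from B6.

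The genes whose profiles most resembled each member were named from Pearson correlations of log2 values, given with no test because the arrays share cell type and strain. Over all 16 arrays Foxp3 was matched most closely by Myo1e (r = 0.995), Il2ra (0.988), Gpr83 (0.987), Ahcyl2 (0.987) and Ikzf2 (0.984), a likeness that the 2 cell types set. Within the 8 Treg arrays the closest were Cxxc5 (0.984), Btbd2 (0.957), Marcksl1 (0.947), Zmat1 (0.938) and Farp2 (0.932), and within the 8 Tconv arrays Ift88 (0.972), Fn3krp (0.958), Tmem63b (0.957), Eno2 (0.95) and Nckap1l (0.947). No gene appeared in 2 of these 3 groups of 5.

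Ccdc22 had no close counterpart over all 16 arrays, where the highest correlations were 0.771 for Vamp3, 0.735 for Arpc1a, 0.697 for Lmnb2, 0.69 for H2-M3 and 0.679 for Golga7. Within the 8 Treg arrays they were 0.938 for Nlrc5, 0.936 for Serpine3, 0.935 for Bcl7a, 0.921 for Rundc3a and 0.899 for Arpc1a. Within the 8 Tconv arrays they were 0.954 for Nup210, 0.918 for Vars2, 0.917 for Fam207a, 0.903 for Rnf39 and 0.884 for Stoml1. Arpc1a was the only gene among the 5 highest both over all arrays and within Treg. With 12797 genes set against 8 arrays these names are a description of these arrays.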

How the data were processed

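RNA from 16 samples was measured on Mouse Gene 1.0 ST arrays. The authors used Affymetrix Power Tools and RMA, per the submitters' processing notes, and deposited linear-scale intensities. Tool versions and genome build: not given in the sources used here. Log2 was taken with no pseudocount. Of 25108 probe sets, 21157 carried 1 gene symbol, 1341 several and 2610 none. Where a gene (19531 in all) had several probe sets, the one brightest on average was kept. Genes above the 40th percentile (log2 6.06) on at least 2 arrays were tested, 12798 in all.

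A model with 1 mean per group was fitted with limma 3.58.1 in R 4.3.3 (8 residual and 9.8 prior degrees of freedom), with Benjamini-Hochberg adjustment over all genes tested, and was tested on simulated data. Every adjusted p is from this limma fit. Tables were prepared with Python 3.11.15. Both members and all gene lists were chosen with earlier results of these data known. The genes named were the members, the FOXP family, every called neighbour and the 5 measured genes on each side. Also named were up to 4 called genes per list and comparison, the protein partners that fell in Treg, and cell type markers. The 5 genes most like each member were named as well. Gene order and promoters came from RefSeq (GRCm38.p6). Alternatives were no filter, a 60th percentile filter, median centring, quantile normalization, a trended robust fit, array weights, the mean of probe sets, every probe set, only the groups compared, a replicate block, and leaving out each array.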

Additional observations from a re-analysis of the deposited data

Results flagged for a closer look

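Treg minus Tconv for Ccdc22 was above 0 in every fusion sample pair and below 0 in every ires pair, and the gap between fusion and ires lines was 1.17 in NOD and 0.85 in B6. This difference between groups was not tested, because Ccdc22 was chosen for it. Usp27x went in opposite directions in NOD and B6 Treg between fusion and ires, a difference of 0.52 (limma adjusted p = 0.763). Syp did so in NOD and B6 Tconv, a difference of -0.38 (limma adjusted p = 1).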

How the results depend on the processing

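Of 127 results recomputed, 14 were differences of Foxp3 or Ccdc22, only a part of those given above. These 14 kept their sign under every alternative, and outside the left-out arrays each moved by less than the spread between replicates. The signs of the other Foxp3 and Ccdc22 differences are not covered by this. Foxp3 between fusion and ires Tconv (-0.05 ± 0.16), for example, rests on NOD fusion arrays that lay 1.05 apart. Leaving out single arrays moved Ccdc22 between fusion and ires in B6 Treg from 0.35 (without B6 fusion Treg array 2) to 0.60 (without array 1), and Treg minus Tconv in the B6 fusion line from 0.49 to 0.75 without the same arrays. Counts of called genes and neighbours depended more on the settings, and the cause was not tested.

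Neighbours called between fusion and ires in Treg numbered 0 with no filter, median centring, quantile normalization, array weights or every probe set, and 0 to 2 without single arrays (2 without NOD ires Treg array 1). In B6 Treg there was 1 with the stricter filter, 1 with trended robust variances and 2 with only the groups compared, and 0 to 1 without single arrays. Between NOD and B6 Treg there were 0 with no filter, 4 with the stricter filter, and 2 each with centring, quantile normalization, trended variances and only the groups compared (0 to 2 without single arrays). Between NOD and B6 Tconv there were 7 with centring and 0 to 6 without single arrays, 0 without B6 fusion Tconv array 1. For the allele difference in Treg minus Tconv there were 0 to 1.

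Genes called numbered 20 with array weights and 168 with only the groups compared for fusion against ires in B6 Treg, where the reported fit gave 44. With only the groups compared there were 2 in NOD Treg, 2 in B6 Tconv and 1 in NOD Tconv, and with trended variances 6 in Tconv. The allele difference between NOD and B6 in Treg gave 9 with the stricter filter, 8 with quantile normalization, 9 with trended variances and 8 with only the groups compared, and in Tconv 2 with only the groups compared. The allele difference in Treg minus Tconv gave 19 with trended variances. Leaving out single arrays gave 30 to 91 genes for fusion against ires in Treg, 11 to 49 in B6 Treg, 3 to 15 in NOD Treg, 2 to 12 in Tconv, 2 to 5 in B6 Tconv and 2 to 14 in NOD Tconv. It gave 1597 to 3063 between NOD and B6 Treg, 841 to 2365 between NOD and B6 Tconv, 3 to 8 and 2 to 5 for the allele difference between NOD and B6 in Treg and in Tconv, and 2 to 18 for that in Treg minus Tconv. Median centring changed the split of calls between NOD and B6 to 1647 higher and 759 lower in Treg, against 1433 and 1257 as reported, and to 1932 and 374 in Tconv, against 1202 and 831. For fusion against ires in Treg it gave 50 and 14, against 51 and 27.

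Of the lists, Foxp3-repressed genes called between fusion and ires in Treg numbered 0 with no filter, centring or array weights, 1 with every probe set and 0 to 2 without single arrays. Protein partners numbered 1 with trended variances and 0 to 1 without single arrays, and activated genes 1 with only the groups compared. FOXP genes called between NOD and B6 Treg numbered 0 to 2 without single arrays, and WASH genes 2 with quantile normalization. Without single arrays small differences turned sign. Treg minus Tconv ran from -0.06 to 0.01 for Gm14379 (also 0.00) and from -0.08 to 0.01 for Magix (also 0.00). Fusion minus ires in Treg ran from -0.10 to 0.05 for Ppp1r3f (also 0.04) and from -0.08 to 0.01 for Gm14379. NOD minus B6 in Tconv ran from -0.42 to 0.02 for Ctla4.

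With the replicate number as a block, the allele difference in Treg minus Tconv called 16 genes, neighbours called numbered 1 in B6 Treg between alleles, 3 between NOD and B6 Treg and 6 between NOD and B6 Tconv, and WASH genes 2. The block changed no other result's call. Over 28 pairs of groups the deviations of same-numbered arrays correlated from -0.371 to 0.465, with a median of 0.146 and 16 over 0.1. As not every correlation was over 0.1 and the labels name no shared batch, the numbers were not taken as pairs. With 2 arrays a group, small differences in dim genes such as Flicr in Tconv are beyond the precision of these data.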
